A study of Mus musculus with 36 samples.

Results

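The liver is the main site of methionine breakdown, and 10 enzymes of its methionine cycle and of sulfur amino acid metabolism are described here: Mat1a, Gnmt, Pemt, Ahcy, Bhmt, Bhmt2, Cbs, Cth, Cdo1 and Mpst. They were chosen by symbol, with earlier results of these data known. All 10 were measured in each of the 6 gene tables, which together hold 16060 genes. In liver 25 of their transcripts were measured, out of 27711. C57BL/6J mice had been kept for 16 weeks on calorie restriction (CR), on time-restricted feeding without calorie restriction (TR, labelled TR.al) or ad libitum (AL, the controls). RNA of liver and of subcutaneous fat from the groin (inguinal white adipose tissue, iWAT) was sequenced in bulk from 6 libraries in every one of 6 diet-by-tissue groups. The labels name no genotype, transgene or agent besides the strain and the diet. Neither the size of the calorie cut, the feeding window nor the sex of the mice is given in these sources. With no sampling time given either, the time since the last meal cannot be told apart from the diet.

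The values come from the authors' comparisons of groups, so a value for each library, the spread within a group and the sequencing depth are unknown here. Each log2 fold change is a diet against AL, or CR against TR, with an approximate standard error (SE) derived from the deposited statistic. Rose and fell are written only of genes whose FDR, the Benjamini-Hochberg adjusted p of the authors' edgeR fit over all features of a table, was under 0.05. Mean levels of the groups are those that a fold change and mean in the authors' deposited tables imply, in CPM (read counts scaled to library size). The liver markers were those of hepatocytes: Alb, the albumin gene, was at 107410 CPM in CR, 115970 CPM in TR and 74798 CPM in AL liver, and 2 of 12 hepatocyte markers rose on each diet (Tat and Ttr in CR, Alb and Ttr in TR) while none fell. Over all genes, 5.79% rose in CR liver and 9.35% in TR liver. In bulk RNA, fewer cells of a type and less RNA per cell cannot be told apart.

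As background, methionine is activated to S-adenosylmethionine, the methyl donor of the cell, by methionine adenosyltransferase. Methyltransferases such as those encoded by Gnmt and Pemt turn it into S-adenosylhomocysteine, which the Ahcy product splits into homocysteine and adenosine. Homocysteine is either methylated back to methionine, in liver largely with betaine as the donor, or passed by transsulfuration to cysteine, from which taurine, sulfate and sulfide arise.

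Bhmt was read as both a spliced and an intron-retaining transcript, and the sequence at the point where they part is shown because they moved in opposite directions. Capitals mark the bases after the end of exon 4 (GRCm38, minus strand of chromosome 13).
Bhmt-201, exon 4 (chr13:93625297-93625326) joined to exon 5 (chr13:93624932-93624961): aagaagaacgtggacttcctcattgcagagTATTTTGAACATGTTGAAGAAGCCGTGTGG
Bhmt-202, exon 4 read on into intron 4 (chr13:93625267-93625326): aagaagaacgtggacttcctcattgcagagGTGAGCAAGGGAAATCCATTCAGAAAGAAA
Bhmt-202 is annotated as a retained intron, with a last exon of 3608 bases that runs from exon 4 through exon 5.

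Cbs was read as transcripts with and without a short exon near the end of the coding sequence. It is shown, in capitals, because Cbs-202, which lacks it, fell on both diets while Cbs-201, which has it, was not called. Cbs-203, which also lacks it, was not called on either diet. Bases are from the minus strand of chromosome 17 (GRCm38).
Cbs-201, exons 15, 16 (chr17:31614529-31614570) and 17: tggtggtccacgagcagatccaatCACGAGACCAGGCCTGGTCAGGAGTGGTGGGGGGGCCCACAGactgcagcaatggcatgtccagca
Cbs-202, exon 15 joined to the last exon: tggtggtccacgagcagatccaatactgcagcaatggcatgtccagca
Exon 16 has 42 bases, which is 14 codons, so the reading frame is kept without it. The transcripts also differ in their first exons.

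Bhmt and its neighbour Bhmt2 are near copies over part of their length, and their most alike coding stretch of 90 bases is shown because reads from it are hard to assign. The 2 bases that differ are in capitals (GRCm38, minus strand).
Bhmt, coding stretch (chr13:93620150-93620239): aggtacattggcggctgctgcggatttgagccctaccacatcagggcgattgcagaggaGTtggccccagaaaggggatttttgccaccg
Bhmt2, coding stretch (chr13:93662370-93662459): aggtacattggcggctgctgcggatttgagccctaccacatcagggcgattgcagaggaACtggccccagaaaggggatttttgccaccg
Over all 1088 aligned coding bases the genes were 75.4% identical, and the longest identical run was 59 bases. No read length is given here, so some reads may have been divided between them.

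On each diet, 7 of the 10 enzymes changed in liver, in the same directions. Bhmt, Mat1a, Cbs, Cth and Cdo1 fell, Mpst and Pemt rose, and Bhmt2, Gnmt and Ahcy did not pass the threshold. In CR minus AL the 7 members called stand beside 11.2% of all 12636 genes tested, with 2 higher beside 5.79% and 5 lower beside 5.37%. In TR minus AL they stand beside 18.9% of 12691 genes, with 2 higher beside 9.35% and 5 lower beside 9.54%. The median log2 fold change of the 10 was -0.26 in CR and -0.22 in TR, against -0.0038 and -0.00052 over all genes. The comparisons of CR and TR with AL share the AL libraries, so they are not independent of each other. Because the 10 were chosen with earlier results of these data known, the shares beside them are no independent test.

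**Figure D1:**
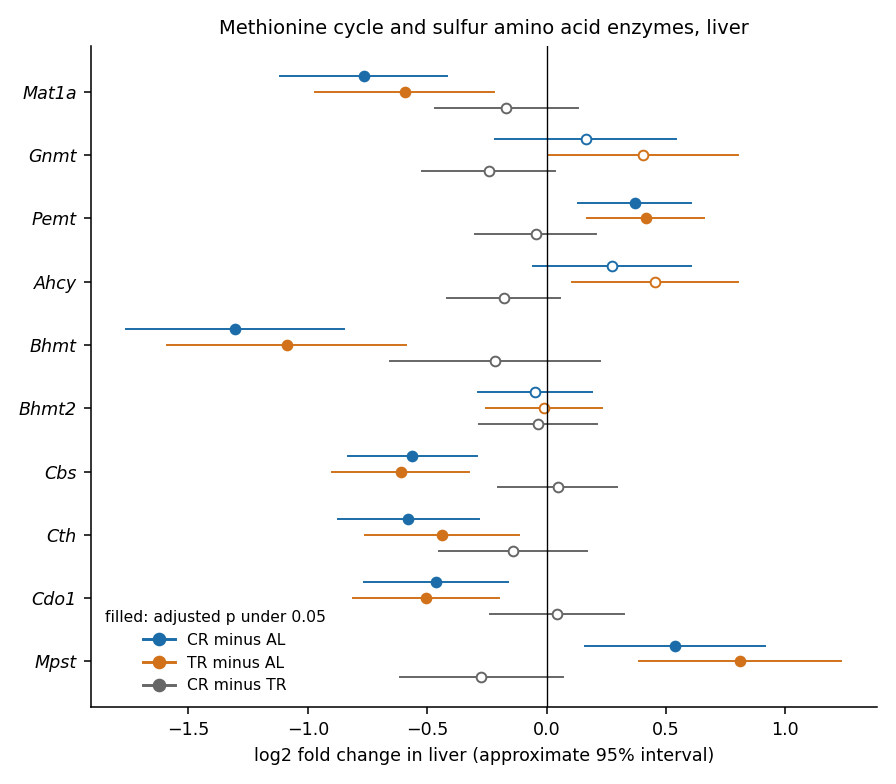
Log2 fold changes of the 10 enzymes in liver (x axis) in CR minus AL, TR minus AL and CR minus TR; points are the authors' deposited values, lines approximate 95% intervals, and filled points have an adjusted p under 0.05. Both diets lie on the same side of 0 for each of the 7 called genes, and no CR minus TR point is filled.

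The mRNA of the enzyme that makes S-adenosylmethionine was lower on both diets. Mat1a encodes the methionine adenosyltransferase of adult hepatocytes (ENSMUSG00000037798, GRCm38 chromosome 14 from 41105035 to 41124412). Its implied means in the authors' deposited tables were 3646 CPM in CR, 4130 CPM in TR and 6217 CPM in AL liver. Both diet means were under that of AL, at 58.8% of it in CR and 66.2% in TR. In the authors' deposited tables the log2 fold change was -0.77 ± 0.18 (approximate SE; FDR 0.00050) in CR and -0.59 ± 0.19 (FDR 0.015) in TR.

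Among the methyltransferases and the enzyme that clears their product, Pemt rose on both diets. Pemt encodes phosphatidylethanolamine N-methyltransferase, which makes phosphatidylcholine in hepatocytes (ENSMUSG00000000301, GRCm38 chromosome 11 from 59970614 to 60046489). Implied means were 302 CPM in CR, 315 CPM in TR and 235 CPM in AL liver by the authors' deposited tables, about 129% of AL in CR and 133% in TR. The deposited log2 fold changes were 0.37 ± 0.12 (FDR 0.024) in CR and 0.42 ± 0.13 (FDR 0.0086) in TR, in the authors' deposited tables. Gnmt, whose product uses glycine as a methyl acceptor and so draws off surplus S-adenosylmethionine (ENSMUSG00000002769, GRCm38 chromosome 17 from 46725664 to 46729168), had 848 CPM in CR, 1012 CPM in TR and 760 CPM in AL liver as implied by the authors' deposited tables. Its log2 fold changes were 0.16 ± 0.19 (FDR 0.68) in CR and 0.41 ± 0.20 (FDR 0.15, unadjusted p = 0.045) in TR in the authors' deposited tables, neither past the threshold. Ahcy, the S-adenosylhomocysteine hydrolase gene (ENSMUSG00000027597, GRCm38 chromosome 2 from 155059310 to 155074497), had 2418 CPM in CR, 2760 CPM in TR and 2008 CPM in AL liver. The authors' deposited log2 fold changes of Ahcy were 0.27 ± 0.17 (FDR 0.34) in CR and 0.45 ± 0.18 (FDR 0.054) in TR, so it missed the threshold on both diets.

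Of the pair of related homocysteine methyltransferases, Bhmt had the lowest log2 fold change of the 10 on both diets and Bhmt2 was not called. Bhmt encodes betaine-homocysteine methyltransferase, which returns homocysteine to methionine (ENSMUSG00000074768, GRCm38 chromosome 13 from 93616675 to 93637961). Its implied means in the authors' deposited tables were 2717 CPM in CR, 3183 CPM in TR and 6741 CPM in AL liver. That is 40.5% of AL in CR and 47.0% in TR. Log2 fold changes were -1.30 ± 0.23 (FDR 1.3e-06) in CR and -1.09 ± 0.26 (FDR 0.00037) in TR in the authors' deposited tables. Bhmt2, whose product prefers S-methylmethionine as the methyl donor (ENSMUSG00000042118, GRCm38 chromosome 13 from 93655720 to 93674302), had 256 CPM in CR, 264 CPM in TR and 265 CPM in AL liver. Its deposited log2 fold changes, -0.05 ± 0.12 in CR and -0.01 ± 0.12 in TR in the authors' deposited tables, have approximate 95% intervals from -0.29 to 0.19 and from -0.25 to 0.23. The Bhmt interval lay from -1.76 to -0.85 in CR and from -1.59 to -0.59 in TR. On both diets it did not overlap that of Bhmt2, but the difference between these neighbours was not tested.

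The mRNAs of both transsulfuration enzymes were lower on each diet. Cbs encodes cystathionine beta-synthase, which joins homocysteine to serine (ENSMUSG00000024039, GRCm38 chromosome 17 from 31608894 to 31637238), and its implied means were 232 CPM in CR, 227 CPM in TR and 344 CPM in AL liver. The log2 fold changes of Cbs were -0.56 ± 0.14 (FDR 0.0011) in CR and -0.61 ± 0.15 (FDR 0.00052) in TR in the authors' deposited tables. Cth encodes cystathionine gamma-lyase, which releases cysteine (ENSMUSG00000028179, GRCm38 chromosome 3 from 157894248 to 157925077). It had implied means of 361 CPM in CR, 400 CPM in TR and 540 CPM in AL liver. Its log2 fold changes were -0.58 ± 0.15 (FDR 0.0027) in CR and -0.44 ± 0.16 (FDR 0.042) in TR in the authors' deposited tables. Relative to AL, Cbs stood at 67.7% in CR and 65.5% in TR, and Cth at 67.0% in CR and 73.8% in TR.

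Cdo1 and Mpst, which encode enzymes of cysteine breakdown, parted. Cdo1, the cysteine dioxygenase gene at the head of the taurine and sulfate branch (ENSMUSG00000033022, GRCm38 chromosome 18 from 46713193 to 46728395), had implied means of 794 CPM in CR, 775 CPM in TR and 1097 CPM in AL liver. It fell on both diets, with log2 fold changes of -0.46 ± 0.15 (FDR 0.028) in CR and -0.51 ± 0.16 (FDR 0.011) in TR in the authors' deposited tables. Mpst encodes mercaptopyruvate sulfurtransferase, which moves cysteine sulfur towards sulfide (ENSMUSG00000071711, GRCm38 chromosome 15 from 78406416 to 78414013). Its implied means were 54.5 CPM in CR, 66.4 CPM in TR and 37.7 CPM in AL liver. It rose by 0.54 ± 0.19 (FDR 0.048) in CR and by 0.81 ± 0.22 (FDR 0.0024) in TR in the authors' deposited tables.

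Divided by the length of each leading transcript, the levels of the members in AL liver ran from 2707 CPM per kb for Bhmt and 1938 for Mat1a down to 29.5 for Mpst. Between them stood Ahcy (790), Gnmt (735), Cdo1 (688), Cth (298), Pemt (234), Cbs (136) and Bhmt2 (108 CPM per kb). In CR liver Mat1a, at 1136 CPM per kb, stood above Bhmt, at 1091, and in TR liver they were at 1287 and 1278 CPM per kb. Neighbours in this order cannot be told apart from each other by a test, because the spread between libraries is not known. Group means of the same gene taken from different deposited tables agreed to within 0.888% for AL, 2.8% for CR and 3.64% for TR in liver.

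**Figure D2:**
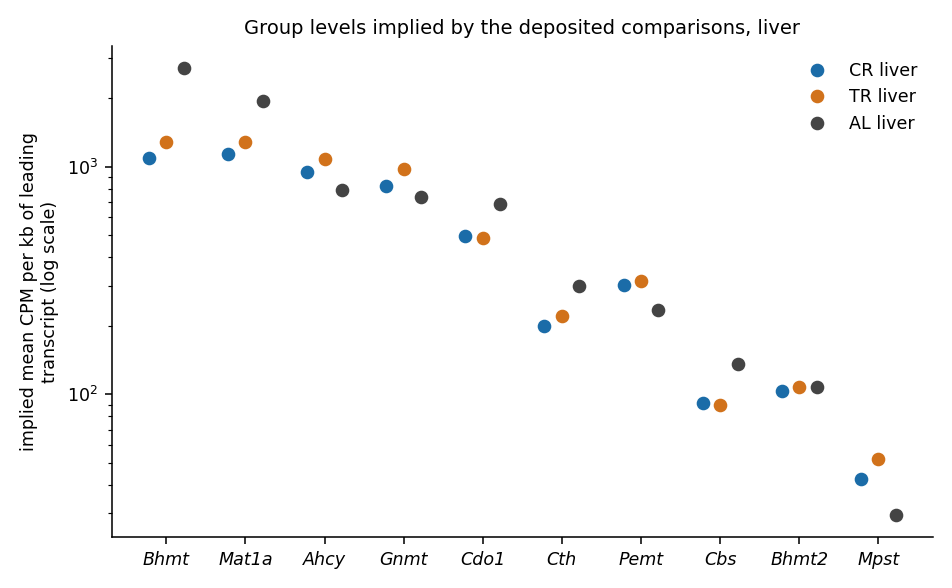
Implied mean CPM per kb of the leading transcript (y axis, log scale) of each enzyme in CR, TR and AL liver; each point is a group mean implied by the authors' deposited tables, with no error because values per library are unknown. Bhmt and Mat1a are the highest in AL liver, at 2707 and 1938, and Mpst the lowest, at 29.5.

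With CR and TR livers set directly against each other, 0 of the 10 enzymes were called, where 0.469% of 12593 genes passed the threshold. At so low a share over all genes, 0 of 10 is near that share. Of the 10 log2 fold changes 8 were negative, with a median of -0.15 against 0.0072 over all genes. No member had an unadjusted p under 0.05 in this edgeR comparison; the smallest was 0.086, for Gnmt, at a log2 fold change of -0.24 ± 0.14 in the authors' deposited table. The 10 approximate 95% intervals together ran from -0.66 to 0.32. All 10 lay within 1 log2 unit of 0, and 7 within 0.5 (the exceptions were Bhmt, Gnmt and Mpst); smaller differences between the diets within these intervals are not excluded. In that table of the authors, as deposited, Bhmt had -0.22 ± 0.22 and Mat1a -0.17 ± 0.15.

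Of their transcripts, 24 were measured in CR against AL and 23 in TR against AL, and 8 passed the threshold in each. CR had 1 higher and 7 lower, beside 2.66% of 26448 transcripts called (1.45% higher and 1.21% lower). TR had 3 higher and 5 lower, beside 3.94% of 26648 (1.96% higher and 1.99% lower). In CR minus TR none of 25 was called by edgeR and 1 (Ahcy-201) had an unadjusted p under 0.05, beside 0.323% of 26042 called. RSEM divides reads that fit several transcripts of a gene, so values of transcripts from 1 gene depend on each other, and a difference between them was not tested.

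The Bhmt transcripts went opposite ways on both diets. Bhmt-201, the coding transcript with 8 exons (ENSMUST00000099309), had implied means of 2632 CPM in CR against 6710 CPM in AL liver, and of 3104 CPM in TR against 6721 CPM in AL liver. It fell, with log2 fold changes of -1.35 ± 0.19 (FDR 1.1e-09) in CR and -1.11 ± 0.21 (FDR 1.0e-05) in TR in the authors' deposited tables. Bhmt-202, which reads on into intron 4 as printed above (ENSMUST00000124193), had 74.7 CPM in CR against 32.1 CPM in AL liver, and 76.1 CPM in TR against 32.1 CPM in AL liver. It rose by 1.22 ± 0.31 (FDR 0.0053) in CR and by 1.24 ± 0.33 (FDR 0.0068) in TR in the authors' deposited tables. Its share of the CPM of both Bhmt transcripts was 2.76% in CR against 0.476% in AL liver, and 2.39% in TR against 0.476% in AL liver. Among all transcripts annotated as retained introns, 18 of 3757 (0.479%) rose in CR and 24 of 3800 (0.632%) rose in TR, with medians of -0.02 and 0.04. The other 4 retained-intron transcripts of the enzymes, Gnmt-202, Ahcy-203, Cth-202 and Cbs-207, were not called on either diet, with log2 fold changes from -0.32 to 0.78 in CR and from -0.08 to 0.87 in TR in the authors' deposited tables. Of these, Gnmt-202 (0.47 in CR and 0.69 in TR) and Cbs-207 (0.78 and 0.87) had an unadjusted p under 0.05 by edgeR on both diets. Ahcy-203 and Cth-202 had none under 0.05.

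Among the Cbs transcripts, the calls fell on Cbs-202 and Cbs-205 on both diets and on Cbs-204 in CR. Cbs-202, which skips the exon 16 printed above (ENSMUST00000078509), had 86.2 CPM in CR against 146 CPM in AL liver, and 68.8 CPM in TR against 146 CPM in AL liver. Its log2 fold changes were -0.76 ± 0.15 (FDR 8.9e-05) in CR and -1.09 ± 0.18 (FDR 2.5e-07) in TR in the authors' deposited tables. Cbs-201, which contains that exon (ENSMUST00000067801), had 112 CPM in CR against 147 CPM in AL liver, and 129 CPM in TR against 147 CPM in AL liver. It was not called, with -0.39 ± 0.22 (FDR 0.64) in CR and -0.20 ± 0.22 (FDR 0.85) in TR in the authors' deposited tables. Cbs-203, which also skips exon 16, was not called on either diet. Its log2 fold changes were -0.56 ± 0.19 (FDR 0.088) in CR and -0.71 ± 0.35 (FDR 0.36) in TR in the authors' deposited tables. Cbs-205, a model of 5 exons that ends upstream of exon 16, had -0.80 (FDR 0.0044) and -1.22 (FDR 3.3e-05), and Cbs-204, which also ends before that exon and stood at 0.0384 CPM in CR against 3.29 CPM in AL liver, had an adjusted p of 0.013 in CR and of 0.47 in TR in the authors' deposited tables. Counts per library that would show whether Cbs-204 was at 0 in CR are unknown, so its fold is not given.

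Of the level per length of Cbs-201, Cbs-202 and Cbs-203, which alone among the measured Cbs transcripts join exon 15 to the last exon with or without exon 16, the share with exon 16 (Cbs-201) was 50.7% in CR against 44.9% in AL liver, and 59.1% in TR against 44.9% in AL liver. No error can be put on these shares, and the difference was not tested. In CR minus TR, Cbs-202 had 0.33 ± 0.17 (FDR 1.0, unadjusted p = 0.052) and Cbs-201 had -0.19 ± 0.17 (unadjusted p = 0.26) in the authors' deposited table of the edgeR fit.

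Against AL, the leading transcripts of the other enzymes had log2 fold changes of the same sign as their genes, with fewer past the threshold. Mat1a-201 fell on both diets, with -0.78 and -0.59, and Cdo1-201 fell with -0.47 and -0.51 in the authors' deposited tables of CR and TR. Cth-201 fell in CR, with -0.59 (FDR 0.014), and had -0.44 (FDR 0.18) in TR in the authors' deposited tables. In TR, Ahcy-201 rose by 0.46 (FDR 0.028) and Mpst-202 by 0.83 (FDR 0.025), while in CR they had adjusted p of 0.51 and 0.28 in the authors' deposited tables; whether the diets differ there was tested in CR minus TR, where neither was called. Pemt-202 had 0.35 (FDR 0.30) in CR and 0.41 (FDR 0.16) in TR in the authors' deposited tables, so the rise of Pemt was called for the gene but not for its transcript.

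**Figure D3:**
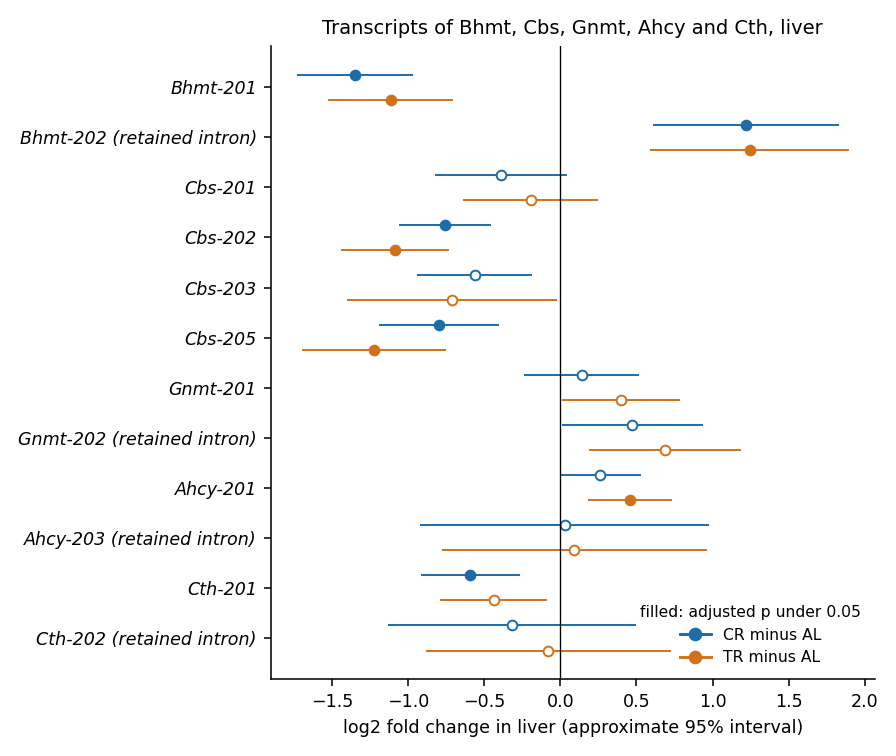
Log2 fold changes of 12 transcripts of Bhmt, Cbs, Gnmt, Ahcy and Cth in liver (x axis), CR minus AL and TR minus AL; points are the authors' deposited values, lines approximate 95% intervals, and filled points have an adjusted p under 0.05. Bhmt-201 lies left of 0 and Bhmt-202 right of it on both diets, while Cbs-202 and Cbs-205 are filled and Cbs-201 and Cbs-203 are open.

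Genes of 6 neighbouring pathways were read beside the enzymes, and 23 of 78 measured passed the threshold in CR and 26 of 78 in TR, beside the 11.2% and 18.9% of all genes given above. None was called by edgeR in CR minus TR, where 9 had an unadjusted p under 0.05. Counts of single pathways below stand beside 5.79% of all genes higher and 5.37% lower in CR, and 9.35% higher and 9.54% lower in TR.

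In the methyl donor and folate cycle, 20 genes were measured, of which 4 rose and 1 fell in CR while TR had 3 higher and 2 lower, with median log2 fold changes of 0.12 and 0.13. Mat2a, which encodes the methionine adenosyltransferase found in most tissues, rose by 0.35 (FDR 0.0070) in CR and 0.41 (FDR 0.0011) in TR in the authors' deposited tables, opposite in sign to Mat1a. The implied means of Mat2a were 99.3 CPM in CR against 78.1 CPM in AL liver. Sardh, which oxidises the sarcosine made by the Gnmt product, rose by 0.48 and 0.57, and Aldh1l1, the formyltetrahydrofolate dehydrogenase gene, by 0.76 and 0.77 in the authors' deposited tables of CR and TR. Amt, a subunit of the glycine cleavage system, fell with -0.84 (FDR 1.3e-10) and -0.85 (FDR 2.8e-08) in the authors' deposited tables of CR and TR. Mtr, the methionine synthase gene of the folate-dependent route from homocysteine to methionine, had 0.17 and -0.16, and its reductase gene Mtrr 0.01 and 0.15 in the authors' deposited tables of CR and TR; neither was called, and both were chosen after their values were seen. Ahcyl2, a relative of Ahcy, rose in CR by 0.38 and Mat2b, the regulatory subunit partner of Mat2a, fell in TR with -0.34 in the authors' deposited tables.

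Other methyltransferases that use S-adenosylmethionine included several that rose. Among the 12 measured, CR had 4 higher and 1 lower, and TR had 5 higher and 1 lower, with medians of 0.07 and 0.18. Inmt, which methylates indolethylamines, rose by 1.20 (FDR 7.3e-09) and 1.30 (FDR 3.3e-11) in the authors' deposited tables of CR and TR. Gamt, the last enzyme of creatine synthesis, rose by 0.99 and 1.13, and Hnmt, which inactivates histamine, by 0.81 and 0.75 in the authors' deposited tables of CR and TR. Dnmt3a, a DNA methyltransferase gene, fell with -0.47 and -0.40, and Coq5, a gene of coenzyme Q synthesis, rose in TR by 0.31 in the authors' deposited tables. Nnmt, which methylates nicotinamide, had -0.24 (FDR 0.50) in CR and -0.04 (FDR 0.86) in TR in the authors' deposited tables, and it was picked after its value was seen.

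Downstream of cysteine, Sqor and Ethe1 rose on both diets and Csad fell in CR. Among the 13 measured, CR had 2 higher and 3 lower, and TR had 5 higher and 0 lower, with medians of 0.02 and -0.01. Csad encodes the decarboxylase that follows Cdo1 on the way to taurine, and it fell to 125 CPM in CR against 279 CPM in AL liver, a log2 fold change of -1.16 ± 0.18 (FDR 5.8e-09) in the authors' deposited table. In TR it had 203 CPM against 281 CPM in AL liver, at -0.47 ± 0.22 (FDR 0.11), and CR minus TR gave -0.68 ± 0.21 (FDR 0.12) in the authors' deposited tables. Sqor, the sulfide quinone oxidoreductase gene, rose by 0.67 and 0.59, and Ethe1, the persulfide dioxygenase gene, by 0.64 and 0.74 in the authors' deposited tables of CR and TR. Tst, the rhodanese gene, rose in TR by 0.60 (FDR 0.0090) and had 0.34 (FDR 0.18) in CR in the authors' deposited tables. Got1, a cytosolic aminotransferase gene, and Ado, the cysteamine dioxygenase gene, rose in TR by 0.69 and 0.35 in the authors' deposited table. In CR, Mocs1, of molybdenum cofactor synthesis, and Gclc, of glutathione synthesis, fell with -0.43 and -0.44 in the authors' deposited table.

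In methionine salvage and polyamine metabolism, 2 of 12 genes rose on each diet and none fell, with medians of 0.09 in CR and 0.16 in TR. Called in either direction, 2 of 12 is near the 11.2% of all genes in CR and the 18.9% in TR. Amd1, which decarboxylates S-adenosylmethionine for polyamine synthesis, rose by 0.37 and 0.66, and Paox, a polyamine oxidase gene, by 0.77 and 0.50 in the authors' deposited tables of CR and TR. Along the choline route to phosphatidylcholine, which runs beside that of Pemt, 1 of 11 genes rose and 2 fell on each diet, with medians of 0.08 and 0.0012. The choline kinase genes parted, as Chka rose by 1.07 and 0.88 while Chkb fell with -0.60 and -0.63, and Chpt1, the cholinephosphotransferase gene, fell with -0.43 and -0.59 in the authors' deposited tables of CR and TR. Of the 10 transporter genes CR had 3 higher and 0 lower, and TR had 3 higher and 2 lower, with medians of 0.02 and 0.06. Slc43a1, a transporter of large neutral amino acids, rose by 0.80 and 1.00, and Slc6a13, a transporter of GABA and taurine, by 0.31 and 0.43 in the authors' deposited tables of CR and TR. Slc44a1, a choline transporter gene, rose in CR by 0.40, and in TR Slc3a2 rose by 0.35 while the amino acid transporters Slc38a4 and Slc38a2 fell with -0.40 and -0.29 in the authors' deposited tables.

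**Figure D4:**
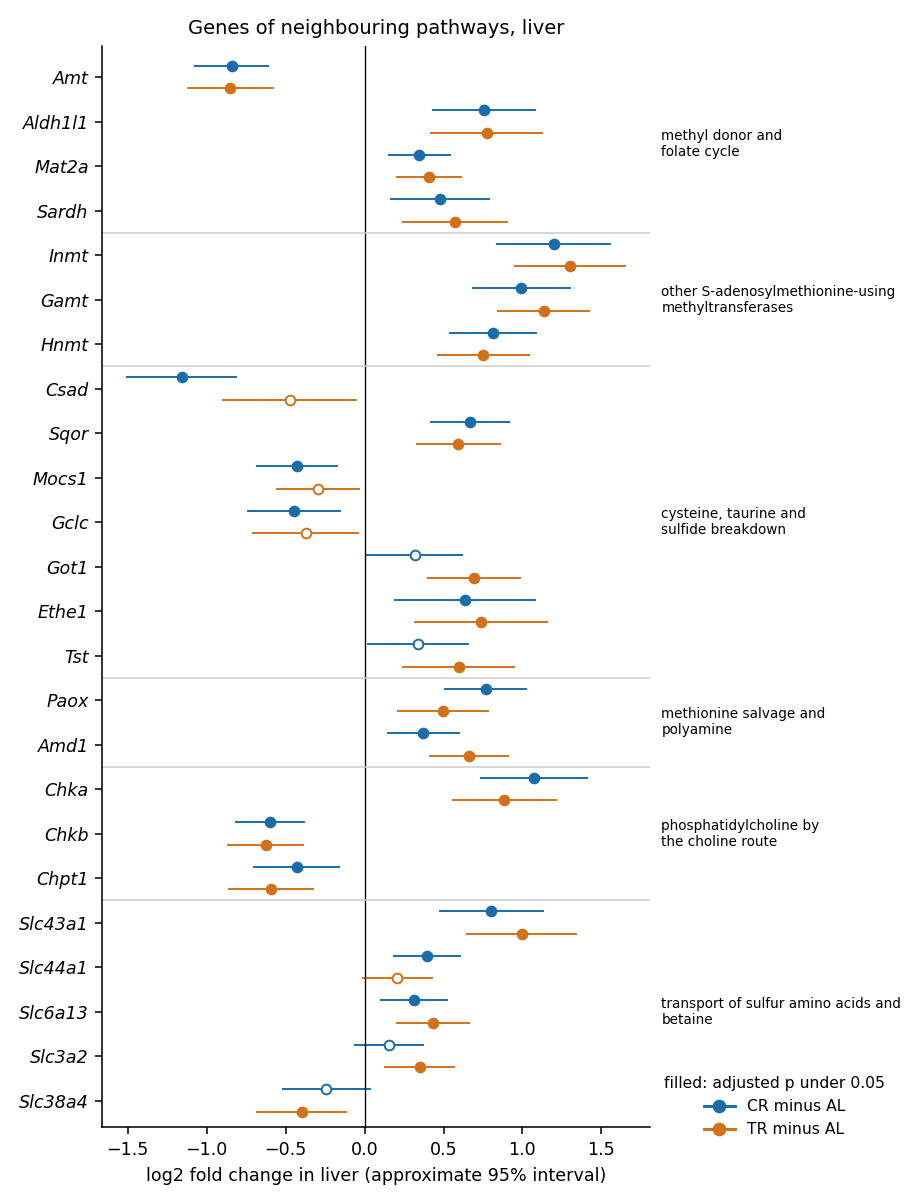
Log2 fold changes in liver (x axis) of neighbouring pathway genes among the up to 4 with the smallest adjusted p for each pathway and diet, in CR minus AL and TR minus AL; points are the authors' deposited values, lines approximate 95% intervals, and filled points have an adjusted p under 0.05. The methyltransferases Inmt, Gamt and Hnmt lie right of 0 on both diets, and Amt, Csad, Chkb and Chpt1 lie left of it.

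Markers of liver zones and of other liver cells were read beside the 11.2% of all genes called in CR and 18.9% in TR. The lists are short, and 1 of 7 called is near these shares. Of 7 periportal hepatocyte markers, 1 (Gls2) rose on each diet and none fell, and Cyp2f2, Hal and Sds were not called. Of 8 pericentral markers, 2 rose (Cyp1a2 and Rhbg) and 2 fell (Lgr5 and Oat) on each diet. Oat had log2 fold changes of -0.65 and -0.60, while Glul had 0.04 and 0.15 and Cyp2e1 0.21 and 0.10 in the authors' deposited tables of CR and TR. None of 5 Kupffer cell markers was called by edgeR in CR, where 0 had an unadjusted p under 0.05, and 2 (Marco and Timd4) fell in TR; Col1a1 of 5 stellate cell and fibroblast markers rose on each diet. Of the cholangiocyte markers, 1 of 4 (Krt19) rose in CR and 2 of 3 (Krt19 and Epcam) in TR, and none of 4 endothelial markers was called by edgeR on either diet or had an unadjusted p under 0.05. The part of these shifts in the values of the enzymes was not tested.

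In iWAT, 8 of the 10 enzymes were at under 10% of their liver level on each diet, the exceptions being Cdo1 and Mpst. Given as CPM in iWAT over CPM in liver on the same diet, Mat1a stood at 0.0495% in CR, 3.56% in TR and 0.759% in AL mice. Bhmt stood at 0.0786%, 2.85% and 1.22%, Bhmt2 at 0.0834%, 3.59% and 1.08%, and Gnmt at 0.128%, 3.39% and 1.39% in CR, TR and AL mice. Alb, at 0.163%, 4.41% and 0.906%, and Apoa1, at 0.0836%, 3.79% and 1.38%, had the same order, lowest in CR and highest in TR. Tissues were normalized apart, so these shares set levels across tables. The divisors are liver levels, and those of Mat1a and Bhmt fell on both diets. Within iWAT, Bhmt had 90.7 CPM in TR against 82.0 CPM in AL. Its log2 fold change there was 0.15 ± 1.57 (FDR 0.97) in the authors' deposited table, so the order of its shares is not that of a called iWAT change between TR and AL.

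**Figure D5:**
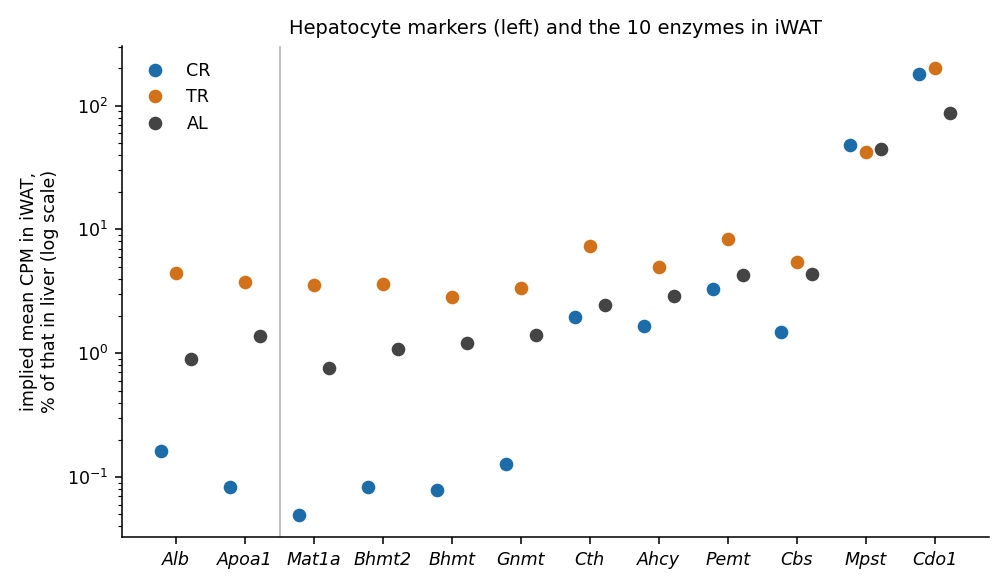
Implied mean CPM in iWAT as a percent of that in liver on the same diet (y axis, log scale), for the hepatocyte markers Alb and Apoa1 (left of the line) and the 10 enzymes, in CR, TR and AL mice; each point comes from group means implied by the authors' deposited tables, with no error. Mat1a, Bhmt, Bhmt2 and Gnmt lie under 4% on each diet with CR lowest, as do Alb and Apoa1 except for Alb in TR at 4.41%, while Mpst and Cdo1 lie above 40%.

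In CR minus AL, 4 of the 10 enzymes fell in iWAT, beside 7.3% of 15295 genes called (3.52% higher and 3.78% lower). Bhmt had 2.14 CPM in CR against 82.7 CPM in AL iWAT, a log2 fold change of -5.27 ± 1.41 (FDR 0.0056) in the authors' deposited table. Mat1a had 1.80 CPM in CR against 47.4 CPM in AL iWAT, at -4.72 ± 1.32 (FDR 0.0093), and Gnmt 1.09 CPM in CR against 10.7 CPM in AL iWAT, at -3.30 ± 1.00 (FDR 0.020), in the authors' deposited table. Cbs had 3.42 CPM in CR against 15.1 CPM in AL iWAT, at -2.14 ± 0.49 (FDR 0.00069) in the authors' deposited table. Of 12 hepatocyte markers, 10 fell in the same comparison, all but Alb and Apoc3, with a median of -4.02; their implied levels ran from 0.480 to 175 CPM in CR and from 8.79 to 680 CPM in AL iWAT. Of 7 skeletal muscle markers none was called by edgeR or had an unadjusted p under 0.05, with a median of 1.09. The part of hepatocyte RNA in the falls of the enzymes was not tested.

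In TR minus AL no enzyme was called in iWAT by edgeR, beside 10% of 15356 genes (4.76% higher and 5.24% lower). The 3 with an unadjusted p under 0.05 were Cdo1, Mpst and Pemt. Pemt had 26.4 CPM in TR against 10.1 CPM in AL iWAT, at 1.39 ± 0.54 (FDR 0.081), in the authors' deposited table. Mat1a had 147 CPM in TR against 47.0 CPM in AL iWAT, at 1.65 ± 1.52 (FDR 0.55), and Ahcy 137 CPM in TR against 57.8 CPM in AL iWAT, at 1.24 ± 0.65 (FDR 0.24), in the authors' deposited table. None of the 12 hepatocyte markers was called either, with 1 (Alb) at an unadjusted p under 0.05 and a median of 2.15. Skeletal muscle markers moved as well in this tissue: 4 of 7 fell in TR minus AL, with Acta1 at 64.6 CPM in TR against 464 CPM in AL iWAT. Of 5 adipocyte markers, Fabp4 rose by 0.59 and Lep fell with -0.96 in TR by the authors' deposited table, while none was called by edgeR in CR minus AL, where 1 (Lep) had an unadjusted p under 0.05. Adipoq, another of them, was at 2602 CPM in CR, 3042 CPM in TR and 2880 CPM in AL iWAT and was not called. The part of these markers in the values of the enzymes was not tested.

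In CR minus TR, 2 of the 10 enzymes were lower in CR iWAT, beside 0.918% of 14699 genes (0.0612% higher and 0.857% lower). Mat1a had 1.59 CPM in CR against 131 CPM in TR iWAT, at -6.37 ± 1.68 (FDR 0.026), and Gnmt 0.939 CPM in CR against 30.7 CPM in TR iWAT, at -5.03 ± 1.22 (FDR 0.016), in the authors' deposited table. The 12 hepatocyte markers were all lower in CR than in TR iWAT, with a median of -6.07. Of 6 measured skeletal muscle markers, 2 (Mb and Myh1) were higher in CR iWAT, and all 6 had a positive log2 fold change and an unadjusted p under 0.05, with a median of 4.13. Of the enzymes, 8 had an unadjusted p under 0.05, all but Cdo1 and Mpst.

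Cdo1 and Mpst had the highest iWAT levels of the 10 as a share of their liver levels. Cdo1 had 1420 CPM in CR, 1551 CPM in TR and 948 CPM in AL iWAT, which was 179%, 200% and 86.4% of its level in liver on the same diet. Its log2 fold changes were 0.58 ± 0.41 (FDR 0.46) in CR and 0.72 ± 0.27 (FDR 0.075) in TR in the authors' deposited tables, positive where those of liver were negative; the difference between tissues was not tested. Mpst had 26.1 CPM in CR, 28.1 CPM in TR and 16.9 CPM in AL iWAT, with 0.61 ± 0.29 (FDR 0.20) in CR and 0.74 ± 0.35 (FDR 0.18) in TR in the authors' deposited tables. Group means from different tables agreed to within 4.76% for AL, 13.8% for CR and 10.7% for TR in iWAT.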

How the data were processed

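Liver and iWAT of 20 mice gave 36 libraries, 16 mice giving both tissues and 4 giving 1; an animal number shared by a CR and a TR label was counted as different mice. Nothing in the labels says more of housing or batches. The submitters' processing notes name bcl2fastq 2.20, the aligner STAR 2.5.3a, the build GRCm38.p5 and RSEM for quantification. Neither the annotation release nor the authors' filter and edgeR version is given here.

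The log2 values (fold change and mean CPM) are those the authors deposited from edgeR generalized linear models, per the file headers. Likelihood-ratio statistics of the authors are taken as score values, as deposited. Each deposited p-value and FDR (Benjamini-Hochberg over all features of a table) is the authors' own. The 6 gene tables and 3 liver transcript tables were used as deposited; the 3 iWAT transcript tables were not used. Values per library and depth were not at hand, so the planned count models were replaced by the deposited FDR under 0.05 (2-sided), and no interval from counts is given.

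Computed here, with Python 3.11.15, pandas 2.3.3 and scipy 1.17.1, were the approximate SE (the absolute log2 fold change divided by the root of the statistic), intervals of 1.96 SE, and group means from the fold change and mean CPM with equal library numbers. On simulated data these steps returned the SE and group means that had been put in, which checks the arithmetic only. How closely the approximate SE and implied means hold for the authors' fit was not tested. The deposited p matched a chi-square tail with 1 degree of freedom to within 5e-06. Positions and transcript sequences come from GENCODE M21 (GRCm38), matched by identifier.

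The members, the 6 gene lists and 9 marker lists were chosen with earlier results of these data known. Named are all members, up to 4 genes of each list with the smallest adjusted p in a liver comparison, set markers, and for each enzyme the transcript with the highest CPM and any called; a gene named where a count was 5 or fewer was chosen after its values were seen. Not every gene so named is reported here. Alternatives were other thresholds, a minimum level, centring, Bonferroni adjustment, the other tables of a tissue and the leading transcript.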

Additional observations from a re-analysis of the deposited data

How the results depend on the processing

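In liver, 7 enzymes were called on each diet. At an adjusted p under 0.01 there were 4 in CR (4 lower) and 4 in TR (2 higher, 2 lower), and by Bonferroni 1 (Bhmt) and 0. With the leading transcript in place of the gene, 4 were called in CR and 5 in TR. In iWAT the 4 calls of CR minus AL became 0 by Bonferroni, the 2 of CR minus TR became 0 at 0.01 and by Bonferroni, and the 0 of TR minus AL became 2 (Cdo1 and Pemt) at 0.10. The 8 transcripts called on each diet became 5 on each diet at 0.01, and the 23 pathway genes of CR minus AL became 15 at 0.01. These transcript and pathway settings were chosen after seeing the data.

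A minimum log2 mean CPM of 1 changed no call of an enzyme in either tissue. Centring on the median of all genes, and values from the other 2 comparisons of a tissue, give no new p. Neither turned the sign of a called enzyme, an outcome that was all but fixed in advance. The comparisons of a tissue rest on the same libraries, and the medians subtracted were small. Not run, for want of values per library: leaving out each replicate, DESeq2, no filter on low counts and another pseudocount. No paired analysis was possible because the tables carry no values per library. Depth is unknown, so a low iWAT level rests on an unknown number of reads.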

Other observations

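Some of the enzymes have close neighbours on the chromosome, which were read beside them. Bhmt and Bhmt2 lie on chromosome 13 with 17758 bases between them, and Dmgdh, which oxidises the dimethylglycine made by the Bhmt product, starts 130 bases from Bhmt2. While Bhmt fell on both diets, Dmgdh had log2 fold changes of -0.12 (FDR 0.65) in CR and -0.04 (FDR 0.89) in TR liver in the authors' deposited tables, at 613 CPM in CR against 666 CPM in AL liver, and 652 CPM in TR against 670 CPM in AL liver. Mpst and Tst, which encode related sulfurtransferases, lie head to head on chromosome 15 with 508 bases between them. In TR both rose, Mpst by 0.81 and Tst by 0.60, and in CR Mpst rose by 0.54 while Tst had 0.34 (FDR 0.18) in the authors' deposited tables. Whether neighbours differ in response was not tested.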
